A study of Mus musculus with 12 samples.

Results

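Arginine and polyamine metabolism was examined through 10 genes chosen by their function: *Slc7a2*, *Ass1* and *Asl*, *Arg1*, *Arg2* and *Nos2*, and *Odc1*, *Srm*, *Sms* and *Sat1*. These genes and the further lists were chosen with earlier results of these data known. Their counts and medians set beside all genes are therefore descriptions only. All 10 were among the 26699 gene symbols counted in the 12 RNA libraries, and all 10 passed the filter on low counts that left 11927 genes for testing. Whole synovium, the membrane that lines the joint, was dissected from adult wild-type mice (C57BL/6 in the labels, C57BL/6J in the study's methods) and incubated for 4 h either with 100 nM CGRP (calcitonin gene-related peptide, a peptide released by pain-sensing nerve endings) or with vehicle. The tissue was then digested with collagenase and macrophages positive for MHC class II were sorted as a CD11c-negative subset (IAIE in the sample names) and a CD11c-positive subset (CD11c), giving 4 groups (each subset with and without CGRP) of 3 libraries. Controls are called healthy in the sample names, and no library in this comparison came from a mutant or diseased animal. CGRP was given to the whole tissue, so the sorted macrophages shared the explant with fibroblasts, vessels and nerves during the incubation. The labels do not say whether the 3 libraries of a group came from separate animals or explants, so the p-values measure only the spread between these samples.

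Macrophages draw arginine from outside through cationic amino acid transporters, and they can also rebuild it from citrulline with argininosuccinate synthase and argininosuccinate lyase. Within the cell, arginase splits arginine into urea and ornithine, whereas inducible nitric oxide synthase turns the same amino acid into nitric oxide and citrulline, and in mouse macrophages these enzymes are textbook markers of opposite activation states. Ornithine is the start of the polyamines putrescine, spermidine and spermine, which are made by ornithine decarboxylase, spermidine synthase and spermine synthase and are acetylated for export or breakdown by spermidine/spermine acetyltransferase.

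Library totals ranged from 2127191 to 5649698 counts, and 3 counts, taken as the floor of detection, corresponded to 0.534 to 1.34 CPM (counts scaled to library size with TMM factors), which covers counting error only. IAIE totals did not overlap between controls (2127191 to 3310825 counts) and CGRP libraries (4009081 to 5364559 counts). CD11c totals were 2455650 to 4465508 counts in controls and 4329993 to 5649698 counts with CGRP. *Itgax*, which encodes CD11c, was higher in CD11c than in IAIE libraries by 5.33 ± 0.40 on the log2 scale among controls (estimate ± SE, edgeR adjusted p = 2.99e-08) and by 4.44 ± 0.38 with CGRP (adjusted p = 1.24e-07). Summed over 8 macrophage markers, IAIE libraries held 3727 to 5539 CPM and CD11c libraries 1501 to 2206 CPM. Summed over 7 dendritic cell markers, the same subsets held 89.2 to 173 CPM and 634 to 774 CPM. Markers of both kinds were therefore present in the CD11c libraries, and bulk RNA cannot tell fewer cells of a type from less RNA per cell.

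Promoter sequence is shown for *Ass1*, which rose with CGRP, and *Sms*, which fell, because both hold the same motif. RefSeq start sites were matched by symbol for 4 of the 10 genes (*Ass1*, *Odc1*, *Sms* and *Sat1*; mouse build GRCm38.p6), and the 250 bases before the start of *Ass1* (chr2:31470020-31470269, plus strand) and of *Sms* (the first of its start sites in the table, chrX:157492288-157492537, minus strand) read 5′ to 3′ as follows, with CACGTG, the E-box, in capitals.
Ass1: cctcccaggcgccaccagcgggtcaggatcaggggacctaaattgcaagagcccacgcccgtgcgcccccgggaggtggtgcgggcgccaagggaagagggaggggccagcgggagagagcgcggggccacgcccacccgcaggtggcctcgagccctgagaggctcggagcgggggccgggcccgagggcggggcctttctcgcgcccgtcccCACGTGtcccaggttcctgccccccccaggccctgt
Sms: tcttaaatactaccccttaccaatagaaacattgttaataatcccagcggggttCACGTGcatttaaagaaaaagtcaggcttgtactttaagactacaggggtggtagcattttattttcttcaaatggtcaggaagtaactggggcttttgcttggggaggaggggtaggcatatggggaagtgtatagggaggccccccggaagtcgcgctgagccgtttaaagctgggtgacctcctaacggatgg
The E-box lies at position -36 in *Ass1* and at position -196 in *Sms*, counted from the RefSeq start, and the window at the second *Sms* start lacks it. Of all 32851 windows of this length (250 bases before and 50 after a start), 7.15% hold it on either strand. Its last letters contain ACGTG, the core of the hypoxia response element, which 19.6% of windows hold. The full cAMP response element TGACGTCA (1.79% of windows) was found in none of the windows of these 4 genes, and its first letters TGACG (20.8% of windows) were found only in *Odc1*, at position -79. The palindrome TTGCGCAA of the C/EBP factors (0.183% of windows), the STAT6 motif (6.95%) and the interferon response motif (3.44%) were in none of the 4, and the loose NF-kB motif, in 50.8% of all windows, was in *Ass1*, *Odc1* and *Sms*. These are matches of letters within one window.

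With CGRP, *Slc7a2*, *Ass1*, *Arg1* and *Nos2* rose in both subsets, *Arg2* rose in IAIE cells and *Sms* fell in CD11c cells, while *Asl*, *Odc1*, *Srm* and *Sat1* passed the test in neither subset. In the IAIE subset 5 of the 10 genes rose (*Arg1*, *Arg2*, *Nos2*, *Ass1* and *Slc7a2*), against 5.32% of all 11927 tested genes. None of the 10 fell, against 3.89% of all genes, although *Sms* was lower at an unadjusted p under 0.05. In the CD11c subset 4 rose (*Arg1*, *Nos2*, *Ass1* and *Slc7a2*), against 6.29% of all genes, and *Sms* fell, against 4.59%. The median log2 change of the 10 genes was 0.87 in IAIE and 0.53 in CD11c cells, beside -0.02 and 0.00 over all tested genes. CGRP and control libraries did not overlap in 8 of the 10 genes in the IAIE subset (24.9% of all genes) and in 6 of the 10 in the CD11c subset (29.2% of all genes). Values of the 10 genes in each library are drawn in the plot of CPM by library, and their changes in the plot of log2 differences.

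**Figure D1:**
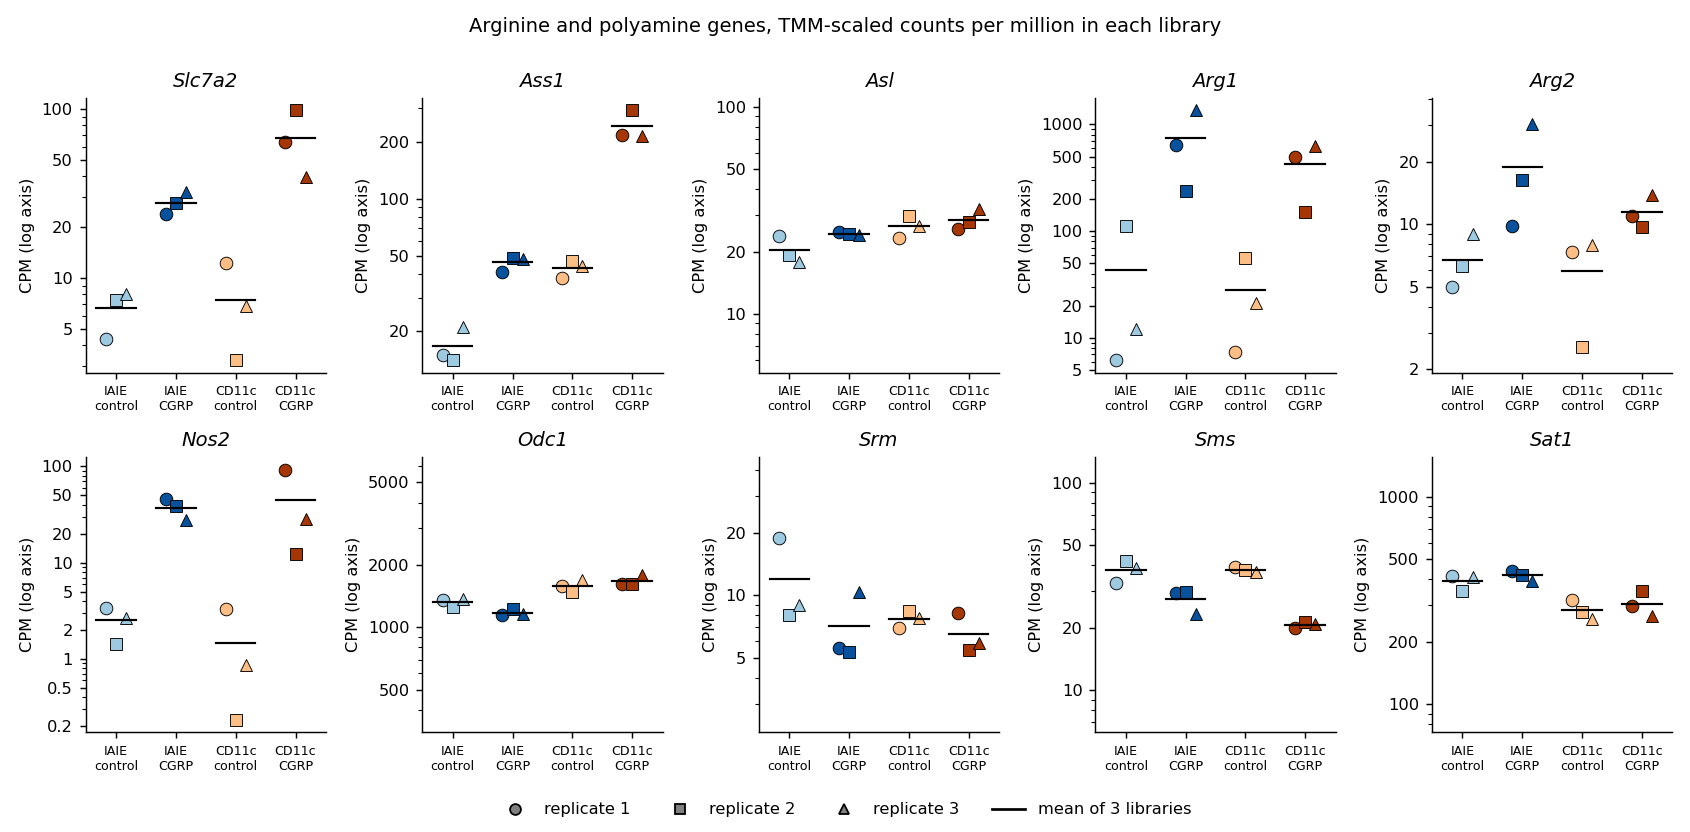
CPM (log axis) of the 10 genes in each of the 12 libraries, with the marker shape giving the replicate number and the bar the mean of 3 libraries. *Slc7a2*, *Ass1*, *Arg1* and *Nos2* lie higher in every CGRP library than in every control library of the same subset, while *Odc1* and *Sat1* move little beside their level.

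**Figure D2:**
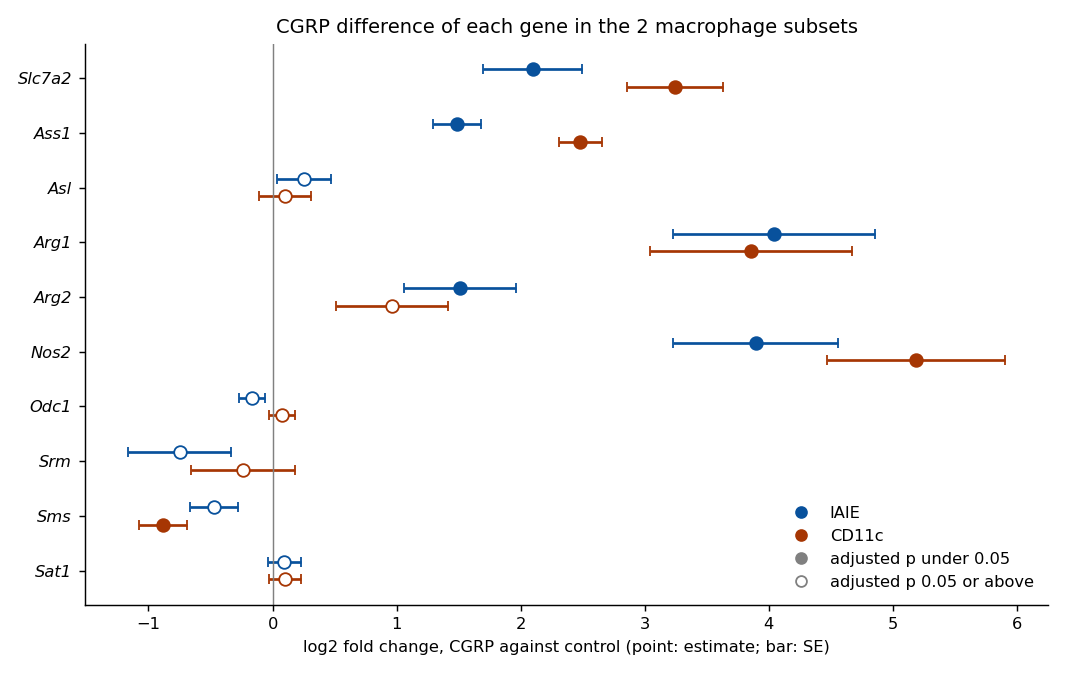
Log2 difference between CGRP and control (point) with its SE (bar) for each gene in the IAIE and the CD11c subset. Filled points passed an adjusted p of 0.05, which 5 genes did in IAIE and 5 in CD11c cells, and *Sms* in CD11c cells is the only filled point below 0.

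*Slc7a2* (chr8:40862396-40922308, plus strand, GRCm38) encodes the cationic amino acid transporter CAT2, which carries arginine into the cell. Its control libraries held 4.34, 7.45 and 8.06 CPM in the IAIE subset and 12.2, 3.27 and 6.87 CPM in the CD11c subset. With CGRP they held 23.8, 27.7 and 32.4 CPM in IAIE and 63.9, 98.5 and 39.9 CPM in CD11c cells. Every CGRP library lay above every control library, and the CD11c libraries with CGRP lay above the IAIE libraries with CGRP. The log2 change was 2.10 ± 0.40 in IAIE (adjusted p = 0.00174) and 3.25 ± 0.39 in CD11c cells (adjusted p = 1.33e-05). *Slc7a1*, which encodes the related constitutive transporter CAT1, went the other way in CD11c cells (174 ± 17.8 to 126 ± 20.7 CPM, SD, n = 3; log2 change -0.47 ± 0.15, adjusted p = 0.0470) and gave -0.18 in IAIE cells (adjusted p = 0.54). *Asl*, *Slc7a2*, *Srm* and *Sat1* share between 0.729% and 9.41% of their 31-base transcript words with other genes, and exons of the antisense *Gm26584* cover 6.95% of the exon bases of *Slc7a2*.

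*Ass1* (chr2:31470207-31520672, plus strand) encodes argininosuccinate synthase, the step that commits citrulline to new arginine. IAIE control libraries held 14.9, 14.1 and 21.0 CPM and CD11c control libraries 37.9, 46.8 and 44.2 CPM. With CGRP the values were 41.0, 48.8 and 48.1 CPM in IAIE and 216, 293 and 215 CPM in CD11c cells. The subsets were apart both without and with CGRP, and IAIE cells with CGRP reached about the level of CD11c cells without it. *Ass1* rose by 1.49 ± 0.19 in IAIE (adjusted p = 5.39e-05) and by 2.48 ± 0.18 in CD11c cells (adjusted p = 1.50e-07) on the log2 scale, and its SE was the smallest of the genes that rose. Of its 31-base transcript words, 43.1% also occur in *Gm5424*, a processed copy of the gene elsewhere in the genome, so reads may be divided between them. *Gm5424* moved with it, from 1.43 to 3.13 CPM in IAIE control libraries and 10.6 to 20.1 CPM in CD11c control libraries to 17.3 to 21.9 CPM and 72.3 to 108 CPM with CGRP.

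*Asl* (chr5:130011258-130029247, minus strand) encodes argininosuccinate lyase, which completes the rebuilding of arginine one step after *Ass1*. It held 23.9, 19.2 and 17.9 CPM in IAIE control libraries and 24.9, 24.3 and 24.0 CPM with CGRP. In the CD11c subset the values were 23.3, 29.7 and 26.6 CPM in controls and 25.7, 27.7 and 32.2 CPM with CGRP. The IAIE values did not overlap but lay close together, and the CD11c values overlapped. The log2 changes of 0.26 ± 0.22 (95% interval -0.20 to 0.71) and 0.10 ± 0.21 (-0.34 to 0.54) did not pass the test.

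*Arg1* (chr10:24915221-24927484, minus strand), the arginase of the cytosol, showed the largest difference in mean CPM of the 10 genes and spread widely between libraries. Control libraries held 6.20, 113 and 12.1 CPM in the IAIE subset and 7.34, 55.6 and 21.0 CPM in the CD11c subset. With CGRP the IAIE libraries held 636, 237 and 1358 CPM and the CD11c libraries 491, 152 and 627 CPM. Replicate 2 was the highest control in both subsets and the lowest CGRP library in both, and even there CGRP libraries lay above controls. The log2 change was 4.04 ± 0.81 in IAIE (adjusted p = 0.00271) and 3.86 ± 0.81 in CD11c cells (adjusted p = 0.00330). Without IAIE control replicate 2 the IAIE change became 6.43 ± 0.91 (adjusted p = 2.64e-04), and without IAIE CGRP replicate 3 it became 3.27 ± 0.78 (0.0144), the ends of the range over libraries left out in turn. Without CD11c control replicate 2 the CD11c change became 4.76 ± 0.998 (adjusted p = 0.00486). Over libraries left out in turn the CD11c change ranged from 3.44 to 4.76. Its highest adjusted p over all alternative fits was 0.0266. No other annotated transcript shares a 31-base word with *Arg1* or has an exon over it.

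IAIE control replicate 2 also stood apart for markers of other cells. Summed over 9 fibroblast markers, IAIE control replicate 2 held 1557 CPM where the other controls of that subset held 359 and 455 CPM. Over 8 neutrophil markers it held 337 CPM, beside 150 and 53.3 CPM. In the CD11c subset, control replicate 2 held 216 CPM of the fibroblast markers and 74.8 CPM of the neutrophil markers, within the range of the other controls. The highest neutrophil sum among controls, 415 CPM, was in CD11c control replicate 3, where *Arg1* held 21.0 CPM. The part of these cells in the *Arg1* level of the controls was not tested.

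*Arg2* (chr12:79130777-79156301, plus strand) encodes the arginase of the mitochondria. Its mean CPM was below that of *Arg1* in every group, but control libraries of the 2 genes overlapped in both subsets. Its IAIE libraries held 4.96, 6.31 and 8.95 CPM in controls and 9.79, 16.3 and 30.5 CPM with CGRP. Its CD11c libraries held 7.34, 2.57 and 7.94 CPM in controls and 10.9, 9.65 and 13.9 CPM with CGRP. CGRP libraries lay above controls in both subsets, by a narrow gap. *Arg2* rose by 1.51 ± 0.45 in IAIE cells (adjusted p = 0.0405), a call that was lost without IAIE control replicate 1 (adjusted p = 0.144) or 2 (0.107), without IAIE CGRP replicate 2 (0.0705) or 3 (0.282), and in limma-voom (0.155). In CD11c cells the change of 0.97 ± 0.45 did not pass (adjusted p = 0.213). Exons of *Vti1b* and *Gm48780* on the opposite strand cover 28.1% of the exon bases of *Arg2*, and the strand setting of the counting is not given in the sources used here, so reads of *Vti1b* could count for it. *Vti1b* itself held 27.8 to 39.7 CPM in IAIE controls and 40.3 to 58.3 CPM in IAIE cells with CGRP (log2 change 0.56 ± 0.20, adjusted p = 0.0961).

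*Nos2* (chr11:78920787-78960254, plus strand) encodes inducible nitric oxide synthase, the enzyme that competes with arginase for arginine. In controls it was close to the floor, with 11, 5 and 6 counts in the IAIE libraries and 8, 1 and 4 counts in the CD11c libraries, or 3.41, 1.43 and 2.69 CPM and 3.26, 0.23 and 0.86 CPM. With CGRP the IAIE libraries held 173, 159 and 146 counts (45.8, 38.6 and 27.5 CPM) and the CD11c libraries 481, 50 and 158 counts (92.2, 12.4 and 28.1 CPM). All CGRP libraries lay above all controls, with the CD11c libraries more scattered than the IAIE libraries. *Nos2* rose by 3.89 ± 0.66 on the log2 scale in IAIE (adjusted p = 6.97e-04) and by 5.18 ± 0.72 in CD11c cells (adjusted p = 5.96e-05). The IAIE call was lost in limma-voom with quality weights (3.92, adjusted p = 0.0915), and the size of both changes rests on few control counts. In CD11c cells the change became 6.24 ± 0.86 without control replicate 1, 4.59 ± 0.78 without control replicate 2 and 4.01 ± 0.58 without CGRP replicate 1 (adjusted p = 1.20e-04, 8.00e-04 and 1.13e-04). Arginase and inducible synthase thus rose in the same libraries. Per kilobase of exon, *Arg1* exceeded *Nos2* in all 12 libraries, by 12.1 to 97.7 times in IAIE and 10.5 to 44.1 times in CD11c cells with CGRP. Among controls it did so by 3.60 to 156 times in IAIE cells and by 4.46 and 48.5 times in CD11c replicates 1 and 3, and no ratio is given for CD11c control replicate 2 with its 1 count of *Nos2*.

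*Odc1* (chr12:17544794-17551505, plus strand) encodes ornithine decarboxylase, the first and tightly controlled step of polyamine synthesis, and it was abundant in every library. IAIE libraries held 1349, 1249 and 1376 CPM in controls and 1152, 1223 and 1159 CPM with CGRP. CD11c libraries held 1591, 1476 and 1701 CPM in controls and 1622, 1615 and 1795 CPM with CGRP. The IAIE values were lower with CGRP with no overlap, and the CD11c values overlapped. Neither log2 change passed the test (-0.17 ± 0.105, 95% interval -0.39 to 0.05, and 0.08 ± 0.105, -0.14 to 0.30). Transcript words shared with other genes make up 31.3% for *Odc1*, with *Gm7993* (1.86 to 8.90 CPM over the 12 libraries) as the main partner.

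*Srm* (chr4:148591503-148594993, plus strand), spermidine synthase, was low and variable. It held 18.9, 8.03 and 8.95 CPM in IAIE controls and 5.56, 5.35 and 10.4 CPM with CGRP, and 6.94, 8.42 and 7.72 CPM in CD11c controls and 8.25, 5.45 and 5.87 CPM with CGRP. The groups overlapped in both subsets, and the log2 changes of -0.75 ± 0.42 (adjusted p = 0.317) and -0.24 ± 0.42 (adjusted p = 0.811) have 95% intervals that reach -1.62 and -1.12.

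*Sms* (chrX:157443855-157492287, minus strand), spermine synthase, carries spermidine on to spermine and was the 1 gene of the 10 that fell. CD11c libraries held 39.2, 37.9 and 37.3 CPM in controls and 19.95, 21.3 and 20.8 CPM with CGRP, which is nearly without spread inside each group. IAIE libraries held 32.9, 41.9 and 38.9 CPM in controls and 29.4, 29.6 and 23.2 CPM with CGRP. In neither subset did CGRP and control libraries overlap. *Sms* fell by 0.88 ± 0.19 on the log2 scale in CD11c cells (adjusted p = 0.00483), and the IAIE change of -0.47 ± 0.19 (95% interval -0.88 to -0.06) did not pass (adjusted p = 0.155). Its pseudogene *Sms-ps*, which holds 17.8% of its transcript words, had 1.42 to 8.31 CPM and no change past the threshold.

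*Sat1* (chrX:155213132-155216449, minus strand) encodes the acetyltransferase that marks spermidine and spermine for export or oxidation. IAIE libraries held 414, 352 and 409 CPM in controls and 441, 423 and 392 CPM with CGRP. CD11c libraries held 319, 278 and 259 CPM in controls and 297, 353 and 267 CPM with CGRP. Treated and control values overlapped in both subsets, with log2 changes of 0.10 ± 0.13 in each and 95% intervals of -0.18 to 0.37 in each.

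Whether CGRP acted differently on the subsets was asked with the interaction, the CGRP change in CD11c cells minus that in IAIE cells. By edgeR none of the 10 genes passed, against 0.134% of all genes in the positive and 0.0168% in the negative direction, and 1 gene, *Ass1*, had an unadjusted p under 0.05. DESeq2 and limma-voom also called none of the 10. For *Ass1* the difference was 0.99 ± 0.26 (95% interval 0.45 to 1.54, adjusted p = 0.156, with 0.0625 to 0.369 over the alternative fits), and for *Slc7a2* it was 1.15 ± 0.55 (-0.01 to 2.31, adjusted p = 0.575). For *Sms* it was -0.41 ± 0.27 (-0.99 to 0.16, adjusted p = 0.754). The intervals were widest for *Arg1* (-2.42 to 2.05) and *Nos2* (-0.94 to 3.52). *Arg2* passed in IAIE and *Sms* in CD11c cells, and the interaction did not pass for either.

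**Figure D3:**
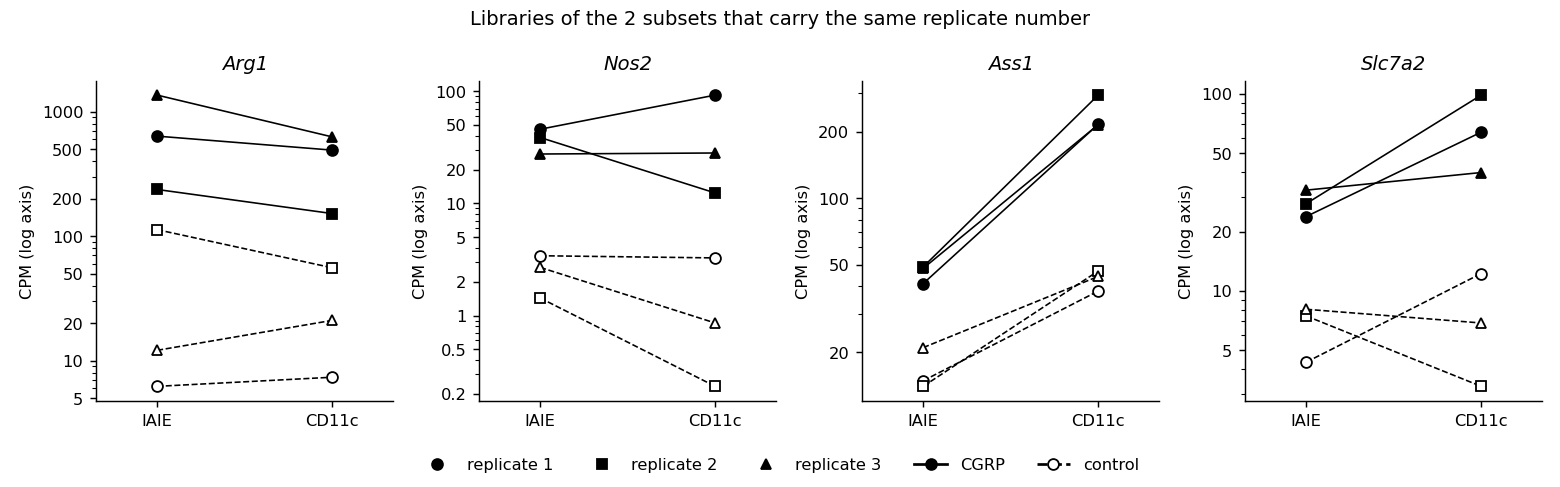
CPM (log axis) of 4 genes in the IAIE and the CD11c library that carry the same replicate number, joined by a line, for CGRP (filled, solid) and control (open, dashed). For *Arg1* the 3 solid lines keep their order between the subsets and each falls toward CD11c cells, while for *Ass1* all 6 lines climb.

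Direct comparison of the subsets gave *Ass1* as the clearest difference. Among control libraries it was higher in CD11c cells by 1.40 ± 0.20 (adjusted p = 4.04e-05) and *Sat1* was lower by -0.46 ± 0.13 (adjusted p = 0.0171), 1 of 10 genes each way, beside 10.2% higher and 10.9% lower over all genes. With CGRP *Ass1* was higher by 2.39 ± 0.17 (adjusted p = 1.85e-08), *Slc7a2* by 1.26 ± 0.34 (adjusted p = 0.0124) and *Odc1* by 0.51 ± 0.11 (adjusted p = 0.00172), and *Sat1* was lower by -0.45 ± 0.13 (adjusted p = 0.0202), beside 8.36% and 8.51% of all genes. The shares of 1 in 10 without CGRP are near the background of the subsets, which differ in about that share of genes. The *Odc1* difference was 0.26 ± 0.11 among controls (adjusted p = 0.0848). Subset values did not overlap in 3 of the 10 genes in controls (34.2% of all genes) and in 6 of the 10 with CGRP (34.8%). The call for *Sat1* was lost in controls without IAIE replicate 1 or 3 or CD11c replicate 2 or 3 (adjusted p = 0.0610 to 0.138) or with every counted gene kept (0.0824), and with CGRP without IAIE replicate 1 or 2 or CD11c replicate 1 or 3 (0.0627 to 0.131). The call for *Slc7a2* was lost without IAIE CGRP replicate 1 (0.0620), without CD11c CGRP replicate 2 (0.115) and with 1 surrogate variable (0.053).

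CGRP libraries with the same replicate number had weakly correlated deviations across genes (0.257, 0.157 and 0.193). The labels do not tie these numbers to explants, so the pairing was read from these same data. For *Arg1*, replicates 1, 2 and 3 held 636, 237 and 1358 CPM in the IAIE subset and 491, 152 and 627 CPM in the CD11c subset. The order of the 3 numbers was the same, and each CD11c library lay below its IAIE counterpart. In the main fit, without a block, the *Arg1* subset difference under CGRP was -0.81 ± 0.70 (adjusted p = 0.511). With treatment and replicate number together as a block, which also paired the control libraries, it was -0.71 ± 0.19 (adjusted p = 0.0139). With that block 5 instead of 4 of the 10 genes passed. These blocked values hold only if the numbers mark shared explants, which is not known. *Nos2* did not keep such an order, with replicate 1 highest in both subsets but replicate 2 lowest only in CD11c cells, and its blocked difference was -0.13 ± 0.38 (adjusted p = 0.877).

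Levels of different genes were compared per kilobase of exon. *Odc1* was the highest of the 10 in each group, at 389 ± 19.6 CPM per kilobase in IAIE controls and 467 ± 33.0 in CD11c controls (mean ± SD, n = 3), followed by *Sat1* at 141 ± 12.4 and 103 ± 11.1. *Nos2* was the lowest in both, at 0.57 ± 0.23 and 0.33 ± 0.36, next to *Slc7a2* at 0.72 ± 0.22 and 0.82 ± 0.49, and the ranges of these last genes overlapped. With CGRP *Arg1* moved to the second place, from 19.6 ± 26.9 to 334 ± 255 CPM per kilobase in IAIE and from 12.6 ± 11.2 to 190 ± 110 in CD11c cells. In IAIE cells its range with CGRP overlapped those of *Odc1* (346 ± 11.5) and *Sat1* (151 ± 8.90), and in CD11c cells it lay below *Odc1* (493 ± 29.9) and overlapped *Sat1* (110 ± 15.7), which itself overlapped *Ass1* (100 ± 18.5). *Nos2* reached 8.46 ± 2.09 and 10.03 ± 9.59 CPM per kilobase with CGRP, which overlapped *Arg2* in both subsets. *Asl*, *Srm*, *Sms* and *Slc7a2* stayed under 10 CPM per kilobase as group means in all 4 groups.

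**Figure D4:**
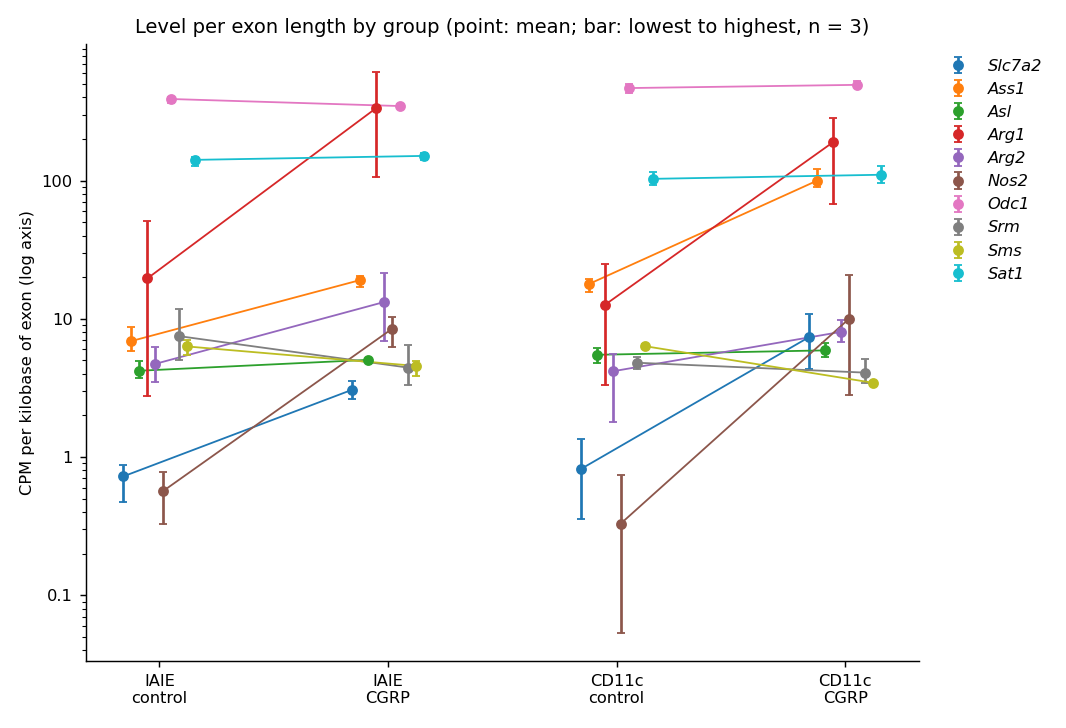
Mean CPM per kilobase of exon (log axis) of the 10 genes in each group, with bars from the lowest to the highest of 3 libraries and lines from control to CGRP within a subset. *Arg1* climbs from among the middle genes to the second place, with a range that overlaps *Odc1* and *Sat1* in IAIE cells and *Sat1* alone in CD11c cells, where it lies below *Odc1*.

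Other genes of these pathways were taken from 8 lists with 63 genes, of which 51 could be tested. In the IAIE subset 5 of the 51 were higher and 11 lower with CGRP (median log2 change -0.27), against 5.32% and 3.89% of all tested genes. In the CD11c subset 5 were higher and 6 lower (median -0.21), against 6.29% and 4.59%. None of the 51 passed the interaction by edgeR (0.134% and 0.0168% of all genes), and 6 had an unadjusted p under 0.05.

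Around the polyamines, *Smox*, the oxidase that turns spermine back into spermidine, rose in both subsets. It held 142, 249 and 219 CPM in IAIE controls and 429, 466 and 476 CPM with CGRP, and 298, 325 and 405 CPM in CD11c controls and 784, 790 and 812 CPM with CGRP. These groups were far apart, with log2 changes of 1.17 ± 0.17 (adjusted p = 1.40e-04) and 1.21 ± 0.16 (adjusted p = 4.97e-05). *Sms*, which runs the reverse step, was lower past the threshold in CD11c cells only (in IAIE cells -0.47, adjusted p = 0.155). *Atp13a2*, a lysosomal polyamine exporter, fell by 1.33 ± 0.24 in IAIE and by 1.21 ± 0.24 in CD11c cells on the log2 scale (adjusted p = 9.90e-04 and 0.00194). *Azin1*, the inhibitor of the antizymes that mark ornithine decarboxylase for degradation, fell by 0.42 ± 0.13 and by 0.47 ± 0.13 (adjusted p = 0.0418 and 0.0190). *Oaz1*, an antizyme, rose in IAIE cells (0.56 ± 0.16, adjusted p = 0.0362) and gave 0.31 in CD11c cells (adjusted p = 0.27). The other 4 of the 8 tested genes did not pass, among them *Amd1*, which makes the aminopropyl donor for *Srm* and *Sms*, with -0.54 and -0.36.

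In amino acid transport, *Slc3a2*, the heavy chain shared by several transporters, rose in IAIE cells (1025 ± 35.2 to 1550 ± 304 CPM, log2 change 0.60 ± 0.13, adjusted p = 0.00497). *Slc7a7*, its partner in the export of cationic amino acids, fell by 1.48 ± 0.42 there (18.7 ± 6.74 to 6.67 ± 2.82 CPM, adjusted p = 0.0301). Beside *Nos2*, 7 genes of the synthases, their cofactor tetrahydrobiopterin and their methylarginine inhibitors were tested. *Prmt1*, an arginine methyltransferase, fell by 0.93 ± 0.27 in IAIE cells (adjusted p = 0.0312), and by edgeR none of the 7 passed in CD11c cells (1 at an unadjusted p under 0.05). *Gch1*, the first enzyme of cofactor synthesis, stayed at 134 to 159 CPM in IAIE controls and 145 to 183 CPM with CGRP. The endothelial synthase *Nos3* reached at most 6.33 CPM in any library and the neuronal *Nos1* at most 1.15 CPM. Of the urea cycle and the route from ornithine to proline, none of the 5 tested genes passed in either subset by edgeR (1 and 0 at an unadjusted p under 0.05), and *Cps1*, the entry to the urea cycle, had at most 2.29 CPM. Among 9 genes of hypusine formation and methionine salvage, *Mat2a*, which makes S-adenosylmethionine, fell by 0.76 ± 0.14 in IAIE cells (adjusted p = 0.00121), and 1 tested gene of creatine synthesis, *Gatm*, did not pass.

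Among the regulators known to act on *Arg1* or *Nos2*, *Hif1a*, the oxygen-regulated factor, rose by 0.59 ± 0.16 in IAIE and by 0.63 ± 0.16 in CD11c cells (adjusted p = 0.0237 and 0.0124). *Irf1* rose by 0.68 ± 0.18 in CD11c cells (76.4 ± 14.1 to 123 ± 23.1 CPM, adjusted p = 0.0161) and gave -0.37 ± 0.17 in IAIE cells (136 ± 24.9 to 105 ± 2.22 CPM, adjusted p = 0.219), and its interaction of 1.05 ± 0.25 had an unadjusted p of 4.64e-04 and did not pass (adjusted p = 0.120). *Nr4a1* fell by 0.68 ± 0.20 in IAIE cells (adjusted p = 0.0327). *Stat6* and *Il4ra*, of the interleukin-4 pathway that is known to induce *Arg1*, gave log2 changes of -0.05 and 0.31 in IAIE and -0.11 and 0.18 in CD11c cells, none past the threshold.

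*Arg1* is often grouped with alternative activation genes. Of 8 others tested, 5 fell in IAIE cells (*Cd163*, *Clec10a*, *Mgl2*, *Mrc1* and *Retnla*), against 3.89% of all genes, and none rose. In CD11c cells 3 fell (*Cd163*, *Mgl2* and *Retnla*), against 4.59%, and 1 rose, *Pdcd1lg2*, by 1.83 ± 0.33 (adjusted p = 9.01e-04). *Mgl2*, a lectin, went from 223, 104 and 134 CPM in IAIE controls to 73.6, 73.1 and 71.7 CPM and from 253, 203 and 218 CPM in CD11c controls to 82.8, 69.3 and 83.6 CPM. All CGRP libraries were below all controls, with log2 changes of -1.08 ± 0.20 and -1.51 ± 0.20 (adjusted p = 0.00170 and 4.37e-05). *Cd163*, the haemoglobin scavenger receptor, fell by 1.05 ± 0.19 and by 1.07 ± 0.19 on the log2 scale (adjusted p = 0.00122 and 9.25e-04), and *Clec10a* fell by 1.34 ± 0.24 in IAIE cells (adjusted p = 0.00113). Sort markers also moved, in that *H2-Ab1*, an MHC class II chain, fell by 0.74 ± 0.11 in IAIE and by 0.66 ± 0.11 in CD11c cells (adjusted p = 3.16e-04 and 5.74e-04). *H2-Aa*, its partner chain, fell by 0.76 ± 0.13 and by 0.61 ± 0.13 (adjusted p = 8.78e-04 and 0.00420). *Itgax* fell by 1.03 ± 0.30 in CD11c cells, from 237 ± 29.0 to 116 ± 7.33 CPM (adjusted p = 0.0288).

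**Figure D5:**
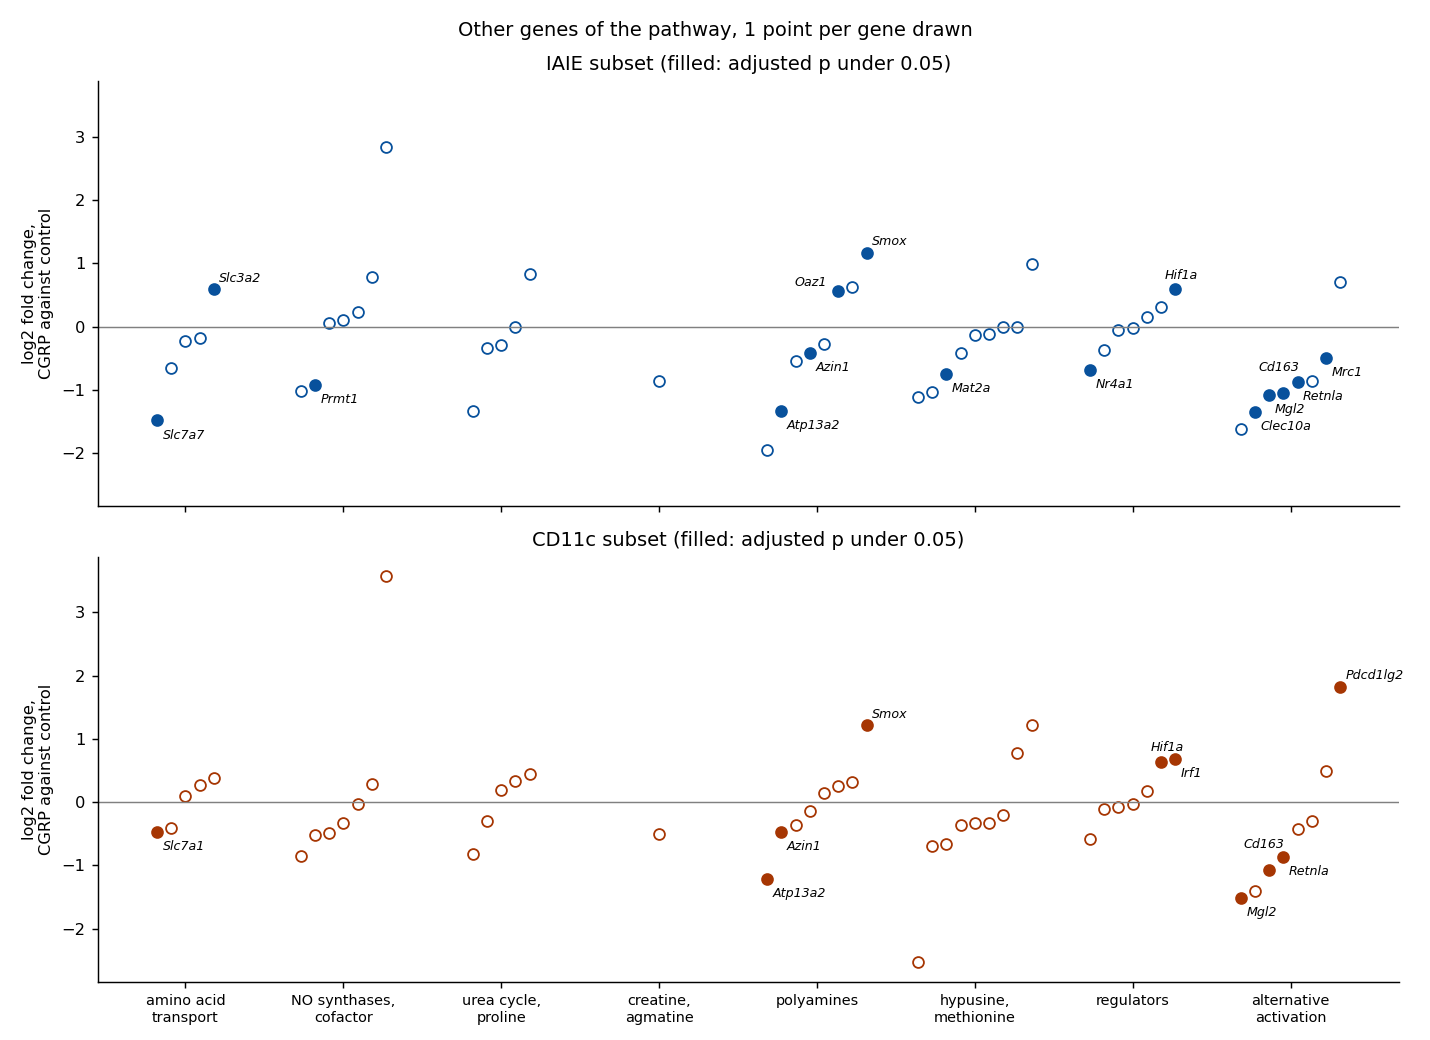
Log2 difference between CGRP and control of the other tested genes, in 8 lists along the axis (1 gene is not drawn), for the IAIE (top) and CD11c (bottom) subset. Filled and named points passed an adjusted p of 0.05, and most of those in the alternative activation list lie below 0 while *Smox* lies above 0 in both panels.

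Genes whose level over the 12 libraries ran closest to each changed gene were named by the smallest root mean square difference of centred log2(CPM + 1), among 8454 genes whose mean reached 5 CPM. For *Ass1* these were *Tarm1* (0.38) and *Clec4n* (0.41), both encoding myeloid surface receptors. For *Slc7a2* the nearest was *F3*, tissue factor (0.47). For *Sms* they were *Stk40* and *Bcl2l11* (0.13 each) and for *Arg2* *Igf2bp2* (0.41) and *Rnf128* (0.42). *Arg1* was nearest to *Egln3*, an oxygen-sensing prolyl hydroxylase (1.29), and *Cxcl5*, a neutrophil-attracting chemokine (1.42). *Nos2* was nearest to *Or2v1* (0.89) and *P4ha2* (0.98). The spread of each gene itself was 2.53 for *Arg1*, 2.005 for *Nos2*, 1.40 for *Slc7a2*, 1.37 for *Ass1*, 0.75 for *Arg2* and 0.37 for *Sms*.

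Markers of other cells moved with CGRP as well. Of 6 tested dendritic cell markers, 3 fell in CD11c cells (*Cd209a* by 1.91 ± 0.18, *Dpp4* by 2.07 ± 0.44 and *Flt3* by 2.03 ± 0.53; adjusted p = 2.26e-06, 0.00322 and 0.0169) and 1 rose, *Ccr7*, from 240 ± 33.4 to 576 ± 53.9 CPM (log2 change 1.26 ± 0.17, adjusted p = 5.32e-05). In IAIE cells 1 of the 6 fell, *Flt3*, by 2.20 ± 0.60 (adjusted p = 0.0241). Of 5 monocyte markers, *Vcan* rose in CD11c cells (1.61 ± 0.34, adjusted p = 0.00360) and none passed in IAIE cells. Among 8 macrophage markers only *Fcgr1* passed, rising by 1.38 ± 0.24 in IAIE and by 1.78 ± 0.25 in CD11c cells (adjusted p = 6.97e-04 and 5.96e-05). In CD11c cells 5 of 5 tested mural cell markers rose, with sums over 6 markers of 25.5 to 31.3 CPM in controls and 52.2 to 354 CPM with CGRP, and *Des* and *Tagln* were without a count in the controls. Of 7 tested fibroblast markers 3 rose in CD11c cells (*Col3a1*, *Dcn* and *Pdpn*), with sums over 9 markers of 207 to 277 CPM in controls and 461 to 768 CPM with CGRP. All 7 were higher there at an unadjusted p under 0.05 in edgeR, with a median log2 change of 2.35. In IAIE cells 3 fell (*Col1a1*, *Col1a2* and *Col3a1*) and *Pdpn* rose, with sums of 359 to 1557 CPM and 570 to 2204 CPM. The SD of each of these collagens exceeded its mean in IAIE controls (266 ± 351, 121 ± 141 and 163 ± 172 CPM, n = 3). The sum of 1557 CPM was that of control replicate 2, which stood apart from the other controls of that subset. Summed neutrophil markers overlapped between treatments, at 53.3 to 337 and 96.6 to 248 CPM in IAIE and 18.8 to 415 and 20.7 to 203 CPM in CD11c cells. Of 7 tested, 1 fell in CD11c cells, *Csf3r* (-0.71 ± 0.21, adjusted p = 0.0359), and none passed in IAIE cells. Their defining gene *Ly6g* was without a count in IAIE controls and in CD11c cells with CGRP. Endothelial markers summed to 12.7 to 18.8 CPM in IAIE controls and 25.8 to 37.2 CPM with CGRP, and to 18.9 to 178 and 19.8 to 99.5 CPM in CD11c cells, with no single gene past the threshold. Chondrocyte markers summed to at most 17.9 CPM outside the CD11c libraries with CGRP and to 8.18 to 255 CPM in them, and 1 of 2 tested, *Comp*, rose in CD11c cells (5.21 ± 0.99, adjusted p = 0.00139). Within the CD11c libraries with CGRP, mural markers (354 CPM) and fibroblast markers (768 CPM) were highest in replicate 1, as was *Nos2*. Chondrocyte markers (255 CPM) and neutrophil markers (203 CPM) were highest in replicate 2, as were *Ass1* and *Slc7a2*. Endothelial markers (99.5 CPM) were highest in replicate 3, as was *Arg1*. Macrophage markers (2206 CPM) were highest in replicate 1, monocyte markers (307 CPM) in replicate 2 and dendritic cell markers (774 CPM) in replicate 3. With 3 libraries any gene shares its highest library with some of these lists, so such a match cannot tie a gene to a cell type. The part of other cells in the values of the 10 genes was not tested.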

How the data were processed

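The authors trimmed reads (Trim Galore), aligned them with HISAT2 against mm10 and used featureCounts for counts per gene. The deposited values are raw counts, not normalised. Versions, annotation and strand setting are not given in the sources used here. The combined table repeats the 12 libraries exactly, and 6 further columns of it were not used for want of a matching label.

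Genes were filtered with filterByExpr (minimum count 10, minimum total 15), scaled by TMM and fitted in edgeR 4.0.16 (R 4.3.3, quasi-likelihood) with a mean for each of the 4 groups. The 5 contrasts were CGRP against control in each subset, their interaction, and CD11c against IAIE in each treatment. Adjusted p-values are Benjamini-Hochberg over 11927 genes, two-sided, called under 0.05, and are from edgeR unless another tool is named. SE is the size of the log2 change over the root of F, and 95% intervals are approximate. Scripts were tested on simulated data. The 10 genes and all lists were chosen with earlier results of these data known. Text names the 10 genes, the sort markers, from the pathway lists up to 3 genes each way per CGRP contrast with the largest called change (mean of at least 5 CPM), and 2 nearest genes per changed gene; other listed genes were named after their values were seen. Of the genes so picked, 1 is not reported here.

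Alternatives were RLE and upper-quartile scaling, other count filters, replicate and explant blocks, 1 surrogate variable (sva 3.50.0), DESeq2 1.42.0, limma-voom (limma 3.58.1) and each library left out. Labels do not tie replicate numbers to explants. Over 6322 genes, IAIE and CD11c libraries with CGRP that share a number had deviations correlated at 0.257, 0.157 and 0.193. The corresponding control libraries gave 0.105, 0.0563 and 0.0984. The explant replicate block took both as paired. Only among the CGRP libraries of the 2 subsets did every pair exceed 0.1, and libraries with different numbers were not compared. Positions and exon lengths are from GENCODE M21 (GRCm38). Promoters are from RefSeq (GRCm38.p6), and proteins were not used here.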

Additional observations from a re-analysis of the deposited data

How the results depend on the processing

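The calls for *Arg1*, *Ass1* and *Slc7a2* with CGRP in both subsets, for *Nos2* (where it could be tested) and *Sms* in CD11c cells, for *Ass1* between subsets, and for *Odc1* between subsets with CGRP held under every alternative run, and the interaction gave 0 of the 10 genes in each. In limma-voom 3 instead of 5 genes passed in IAIE cells with CGRP (*Arg2* and *Nos2* were lost). Leaving out each library gave 1 to 3 genes between subsets in controls and 2 to 4 with CGRP (2 without IAIE CGRP replicate 1). With at least 10 counts in every library *Nos2* could not be tested. Between subsets *Arg1* passed when every gene with at least 1 count was kept (-0.56 in controls, -0.80 with CGRP), *Nos2* in controls passed with 1 surrogate variable (-2.3), and *Odc1* in controls passed in 6 of 22 alternatives. The cause of these shifts was not tested.

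Signs turned only for values that had not passed. The *Sat1* interaction became -0.0047 with RLE, -0.070 with every counted gene, -0.0032 with at least 10 counts in every library, -0.0032 with the explant replicate block, -0.0028 with 1 surrogate variable, -0.0042 in DESeq2 and -0.011 in limma-voom. With 1 surrogate variable the *Arg1* interaction was 0.35, and between subsets *Slc7a2* was -0.049 and *Sms* -0.014 in controls and *Nos2* -1.2 and *Srm* 0.021 with CGRP. In limma-voom the control subset differences were 0.096 for *Arg1*, -0.14 for *Slc7a2* and -0.0075 for *Sms*, and *Nos2* with CGRP was -0.071. *Nos2* with CGRP was -0.16 with the replicate block and -0.13 with the explant replicate block. The replicate block changed no call of the 10 genes, and the explant replicate block changed those of *Arg1* with CGRP (above) and *Odc1* in controls (0.26, adjusted p = 0.0419).

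Leaving out libraries in turn, the CD11c change with CGRP ranged from -0.0077 to 0.11 for *Odc1*, -0.015 to 0.18 for *Sat1* and -0.024 to 0.15 for *Asl*. Interactions ranged from -2.58 to 0.69 for *Arg1*, -0.0056 to 0.89 for *Srm* and -0.12 to 0.079 for *Sat1*. Subset differences in controls ranged from -1.50 to 1.74 for *Arg1*, -0.45 to 0.27 for *Arg2*, -0.34 to 0.55 for *Slc7a2* and -0.079 to 0.10 for *Sms*, and with CGRP from -0.86 to 0.69 for *Nos2* and -0.33 to 0.26 for *Srm*. The main limits are 3 libraries a group, control counts of *Nos2* near the floor, and the shared sequence of *Ass1*, *Odc1* and *Sms*.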
